A study of Homo sapiens with 6 samples.

Results

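In SK-Hep1 cells, 8 genes of cholesterol supply were described, SREBF2, INSIG1, HMGCS1, IDI1, FDPS, FDFT1, SQLE and DHCR7. They were taken by gene symbol as genes under the control of the transcription factor SREBP2. The rule uses no measured value, but it was set with earlier results of these data known. All 8 were found among 11593 listed gene symbols, as 36 of 28768 transcript rows. They comprise the factor, its retention protein and 6 synthesis enzymes, and no receptor or other protein of LDL uptake is among them. RNA came from SK-Hep1, an established human line labelled as hepatocellular carcinoma, in 6 libraries. In 3 libraries the ChIRP probe set covered SNHG10, a long noncoding RNA, and in 3 it was a control set against LacZ, a bacterial gene with no counterpart in human cells. ChIRP retrieves an RNA, with what is crosslinked to it, by biotinylated antisense probes, and the series asked which messenger RNAs come with SNHG10. The rows hold protein-coding transcripts only, so the level of SNHG10 itself was not analysed here. No genotype, drug, dose or time distinguished the groups, and nothing in the labels says that replicates were separate cultures, so p-values refer only to the spread among the 6 libraries, which may be technical in origin.

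Cells make cholesterol from acetyl-CoA through mevalonate, isoprenoid diphosphates, squalene and a series of sterols. When sterols in the endoplasmic reticulum are low, the protein SCAP escorts SREBP2 to the Golgi, where proteases release its active part, which enters the nucleus and switches on genes of synthesis and uptake. When sterols are high, INSIG1 holds SCAP and SREBP2 in the endoplasmic reticulum. The liver is a main organ of this pathway.

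The values are FPKM, fragments scaled by transcript length and by the mapped fragments of the library, summed here over the transcripts of a gene. FPKM totals were 268794 to 277118 per library, and the number of reads behind them is unknown. Genes listed at 0 numbered 850, 897 and 859 in the SNHG10 set against 842, 797 and 748 in the LacZ set. The sets were thus separated in this count, by a narrow gap. Transcript rows listed at 0 made up 32.6%, 33.8% and 32.1% against 32.5%, 32.0% and 30.5%, with overlap. The part of any difference in detection in the results below was not tested. Of 16 hepatocyte markers only SERPINA1 and CPS1 were among the rows, with a summed 1.04 to 1.72 FPKM in the SNHG10 libraries and 1.25 to 2.12 in the LacZ libraries, and 4 of 5 epithelial keratin genes summed to 1839 to 2084 FPKM with SNHG10 probes and 2027 to 2133 with LacZ probes. Of 14 endothelial markers 4 were listed, with a summed 404.5 to 434.2 FPKM in the SNHG10 libraries and 440.5 to 475.3 in the LacZ libraries, which did not overlap. Most of that sum was CAV1 (361 to 413 FPKM), and EGFL7 read 8.30, 7.45 and 8.18 FPKM against 25.98, 18.8 and 14.03. Leukocyte markers, 2 of 6 listed, summed to 36.8 to 56.1 and 43.1 to 56.5 FPKM. The part of these marker differences in the results below was not tested. The other hepatocyte markers had no row, and so no value to read. The design text speaks of retrieved RNA and the extraction protocol of total RNA, so the fraction sequenced is not settled. In either fraction, for a lower marker value, fewer cells expressing the marker and less of its RNA per cell cannot be told apart. In a retrieved fraction, less retrieval by the probes cannot be told apart from them either.

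The sequences before the start sites of the members are shown because SREBP2 acts there together with the factors NF-Y and Sp1. The RefSeq promoter table (GRCh38.p14, 250 bases before to 50 after a start) held windows for 6 of the 8 members, 10 windows in all. Letters were searched on both strands: TCACNCCAC and its overlapping shorter form CACCCCAC for the sterol regulatory element, CCAAT for NF-Y and GGGCGG for Sp1. CCAAT was found in all 6 members, in 7 of their 10 windows, against 34.6% of the 35116 windows in the table and 39.7% of genes with any window. GGGCGG was also found in all 6, in 9 of 10 windows, against 45.0% of windows. TCACNCCAC was found in SREBF2 alone, as TCACCCCAC at bases -133 to -125 before its start, against 1.13% of windows, and CACCCCAC lay at the same place, against 2.79%. A match is only a run of letters, and its absence in a window says nothing of the factor. The stretches below run from 12 bases before the first to 12 after the last match of TCACNCCAC or CCAAT, written 5′ to 3′ along the gene, with matches in capitals (ATTGG is CCAAT on the other strand). Where a member has several windows, 1 window with a match is shown. These coordinates are not comparable with the hg19 positions given for the genes further on.
SREBF2 (chr22:41832960-41833015, plus strand): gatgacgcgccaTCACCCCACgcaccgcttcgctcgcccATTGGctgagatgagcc
INSIG1 (chr7:155297696-155297724, plus strand): cgccggcctcccATTGGttgcggccgcct
HMGCS1 (chr5:43313496-43313579, minus strand): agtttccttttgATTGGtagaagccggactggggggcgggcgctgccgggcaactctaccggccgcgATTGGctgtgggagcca
IDI1 (chr10:1048957-1049030, minus strand): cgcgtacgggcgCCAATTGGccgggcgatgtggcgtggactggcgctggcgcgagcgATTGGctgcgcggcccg
FDPS (chr1:155308678-155308831, plus strand): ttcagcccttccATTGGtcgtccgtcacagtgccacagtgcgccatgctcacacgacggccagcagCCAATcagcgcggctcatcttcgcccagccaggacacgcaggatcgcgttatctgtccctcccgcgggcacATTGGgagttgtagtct
DHCR7 (chr11:71448425-71448499, minus strand): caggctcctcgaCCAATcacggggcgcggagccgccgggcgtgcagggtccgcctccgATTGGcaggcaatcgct
In SREBF2 the sterol element letters lie before an ATTGG, in HMGCS1, IDI1, FDPS and DHCR7 the letters of CCAAT occur more than once, and in INSIG1 they occur once.

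All 8 messenger RNAs were present in every library, at moderately high levels, and none passed the test for a difference between the probe sets. FDFT1 was the most abundant, with a mean of 50.3 FPKM over the 6 libraries, followed by FDPS (45.5), SREBF2 (41.3), DHCR7 (38.0), INSIG1 (26.4), SQLE (24.8), HMGCS1 (20.7) and IDI1 (15.6). These means lie between the 71.6th (IDI1) and the 92.1st (FDFT1) percentile of the 10304 genes tested. FPKM are per length, so these values can be set side by side between genes. Since the fraction sequenced is not settled, their order need not be that of the messenger RNA levels in the cells. Scaling by length also does not remove reads from pseudogenes or overlapping transcripts. The ranges of all 7 neighbouring pairs in that order overlapped, but DHCR7 was above INSIG1 in 6 of 6 libraries and FDFT1 above FDPS in 5 of 6, while INSIG1 was above SQLE in only 3 of 6. The 4 higher genes were all above the 4 lower ones in 5 of the 6 libraries. Together the 8 genes held 0.0913% to 0.101% of the FPKM total with SNHG10 probes and 0.0926% to 0.101% with LacZ probes.

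**Figure D1:**
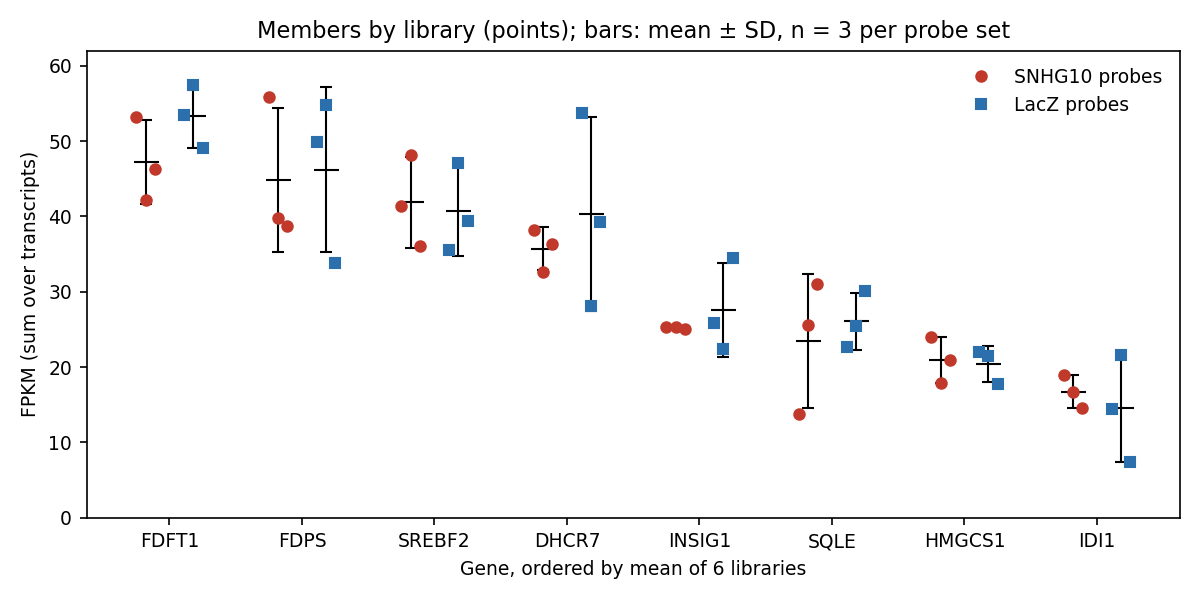
FPKM of the 8 members (vertical axis, from 0), ordered by mean, with 1 point per library (red circles, SNHG10 probes; blue squares, LacZ probes) and black bars for the mean ± SD of 3 libraries. In each gene the points of the probe sets overlap, and DHCR7 has the largest SD within a probe set (12.9 FPKM, LacZ probes).

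Tested with limma over all genes, 0 of the 8 members were higher and 0 lower with SNHG10 probes at an adjusted p under 0.05, as were 0% of the 10304 genes tested. The smallest adjusted p of a member was 0.928 (FDFT1), and 0 of 8 had an unadjusted p under 0.05, against 5.42% of all genes. The libraries of the probe sets overlapped in all 8, whereas 11.4% of all genes had fully separated libraries. Of the 8 log2 differences (SNHG10 minus LacZ, on log2(FPKM + 1)), 3 were positive and 5 negative. Of all genes tested, 43.3% were positive. The median of the 8 was -0.07, against -0.05 over all genes. With median-ratio scaling 4 of the 8 were positive and 4 negative, since FDPS moved from -0.03 to 0.03. The direction was the same in every leave-one-out run for FDFT1 only (-0.26 to -0.10). Without LacZ replicate 2, 3 members (INSIG1, IDI1 and DHCR7) had separated libraries, as had 20.9% of the genes then tested. FDFT1 was the 1 member separated without SNHG10 replicate 1, against 21.8% of genes, and again without LacZ replicate 3, against 21.3%. In the other 3 runs 0 members were separated, against 21.2% to 21.5% of genes. RefSeq places antisense or other transcripts over SREBF2 (SREBF2-AS1 and MIR33A), FDPS (RUSC1-AS1), INSIG1, IDI1, FDFT1 and DHCR7, and since use of strand in the quantification is not given, reads from both could not be told apart. The residual SD had a median of 0.27 over the members and 0.40 over all genes tested, on the log2 scale. IDI1 (0.52) and SQLE (0.44) were above the median of all genes. The members are more abundant than most genes, and genes of like level were not compared, so this cannot be read as a trait of the members.

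SREBF2, which encodes SREBP2 itself (ENSG00000198911, chromosome 22, 42229109 to 42303312, plus strand, hg19), read 41.4, 48.1 and 36.1 FPKM in the SNHG10 set against 35.5, 47.1 and 39.4 in the LacZ set. The second library of each set was the highest and the groups covered almost the same range. The log2 difference was 0.04 ± 0.18 (SE), with a 95% interval of -0.38 to 0.46, and a limma adjusted p of 0.983. In folds of FPKM + 1, that interval runs from 0.770 to 1.37. Nearly all of the SREBF2 signal was its full-length row, SREBF2-201, which held 93.6% of the sum in SNHG10 replicate 2 and 100% in the other 5 libraries. The shorter SREBF2-203 was read in that single library, at 3.07 FPKM.

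INSIG1, the sterol-dependent anchor of SCAP (ENSG00000186480, chromosome 7, 155089486 to 155101945, plus strand), read 25.3, 25.3 and 25.1 FPKM in the SNHG10 set against 25.9, 22.5 and 34.5 in the LacZ set. The SNHG10 libraries were almost equal (SD 0.116, n = 3), while the LacZ libraries lay both below and above them (SD 6.18, n = 3). Its log2 difference was -0.10 ± 0.20 (95% interval -0.57 to 0.36, limma adjusted p = 0.959).

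HMGCS1 makes HMG-CoA at the entry to the mevalonate pathway (ENSG00000112972, chromosome 5, 43289497 to 43313614, minus strand). It read 24.1, 18.0 and 20.9 FPKM in the SNHG10 set against 22.1, 21.5 and 17.7 in the LacZ set, with interleaved groups. The log2 difference was 0.03 ± 0.20 (95% interval -0.43 to 0.49, limma adjusted p = 0.991).

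IDI1, the isomerase that interconverts the isoprenoid building blocks (ENSG00000067064, chromosome 10, 1085848 to 1095110, minus strand), read 19.0, 16.6 and 14.6 FPKM in the SNHG10 set against 14.5, 21.7 and 7.45 in the LacZ set. LacZ replicate 3 was the lowest of all and LacZ replicate 2 the highest. IDI1 had the widest interval of the members, with a log2 difference of 0.30 ± 0.36 (95% interval -0.53 to 1.13, limma adjusted p = 0.934), and the difference was -0.08 without LacZ replicate 3. RefSeq lists 3 pseudogenes of IDI1 by symbol and an overlap with WDR37, so reads could be shared there.

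FDPS joins isoprenoid units into farnesyl diphosphate, where sterol synthesis and protein prenylation part (ENSG00000160752, chromosome 1, 155278585 to 155290456, plus strand). It read 55.8, 39.9 and 38.8 FPKM in the SNHG10 set against 49.8, 54.9 and 33.9 in the LacZ set, so that each set had high and low libraries. The log2 difference was -0.03 ± 0.23 (95% interval -0.57 to 0.50, limma adjusted p = 0.992). RefSeq lists 10 FDPS pseudogenes by symbol, and how the authors assigned reads that match several copies is not given in the sources used here.

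FDFT1, squalene synthase, commits farnesyl diphosphate to sterols (ENSG00000079459, chromosome 8, 11653082 to 11696818, plus strand). It read 53.3, 42.2 and 46.3 FPKM in the SNHG10 set against 53.4, 57.4 and 49.1 in the LacZ set. SNHG10 replicate 1 lay within the LacZ range and the other 2 below it. FDFT1 had the narrowest interval of the 8, with a log2 difference of -0.17 ± 0.15 (95% interval -0.53 to 0.18, limma adjusted p = 0.928), or 0.694-fold to 1.13-fold in FPKM + 1. By the exact permutation test of the means its two-sided p was 0.2, against 0.7 to 1 for the other members, where 0.1 is the least that 3 against 3 libraries allow.

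SQLE, squalene epoxidase, adds the oxygen that precedes ring closure (ENSG00000104549, chromosome 8, 126010748 to 126034525, plus strand). It read 13.8, 25.6 and 31.1 FPKM in the SNHG10 set against 22.7, 25.5 and 30.2 in the LacZ set. SNHG10 replicate 1 was the lowest and SNHG10 replicate 3 the highest of all 6 libraries. The log2 difference was -0.21 ± 0.30 (95% interval -0.91 to 0.49, limma adjusted p = 0.943), and 0.12 without SNHG10 replicate 1.

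DHCR7, the reductase that forms cholesterol from its direct precursor (ENSG00000172893, chromosome 11, 71145460 to 71159481, minus strand), read 38.3, 32.6 and 36.3 FPKM in the SNHG10 set against 53.7, 28.1 and 39.2 in the LacZ set. The SNHG10 libraries lay inside the wider LacZ range. The log2 difference was -0.13 ± 0.24 (95% interval -0.68 to 0.43, limma adjusted p = 0.956), and 0.10 without LacZ replicate 1.

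**Figure D2:**
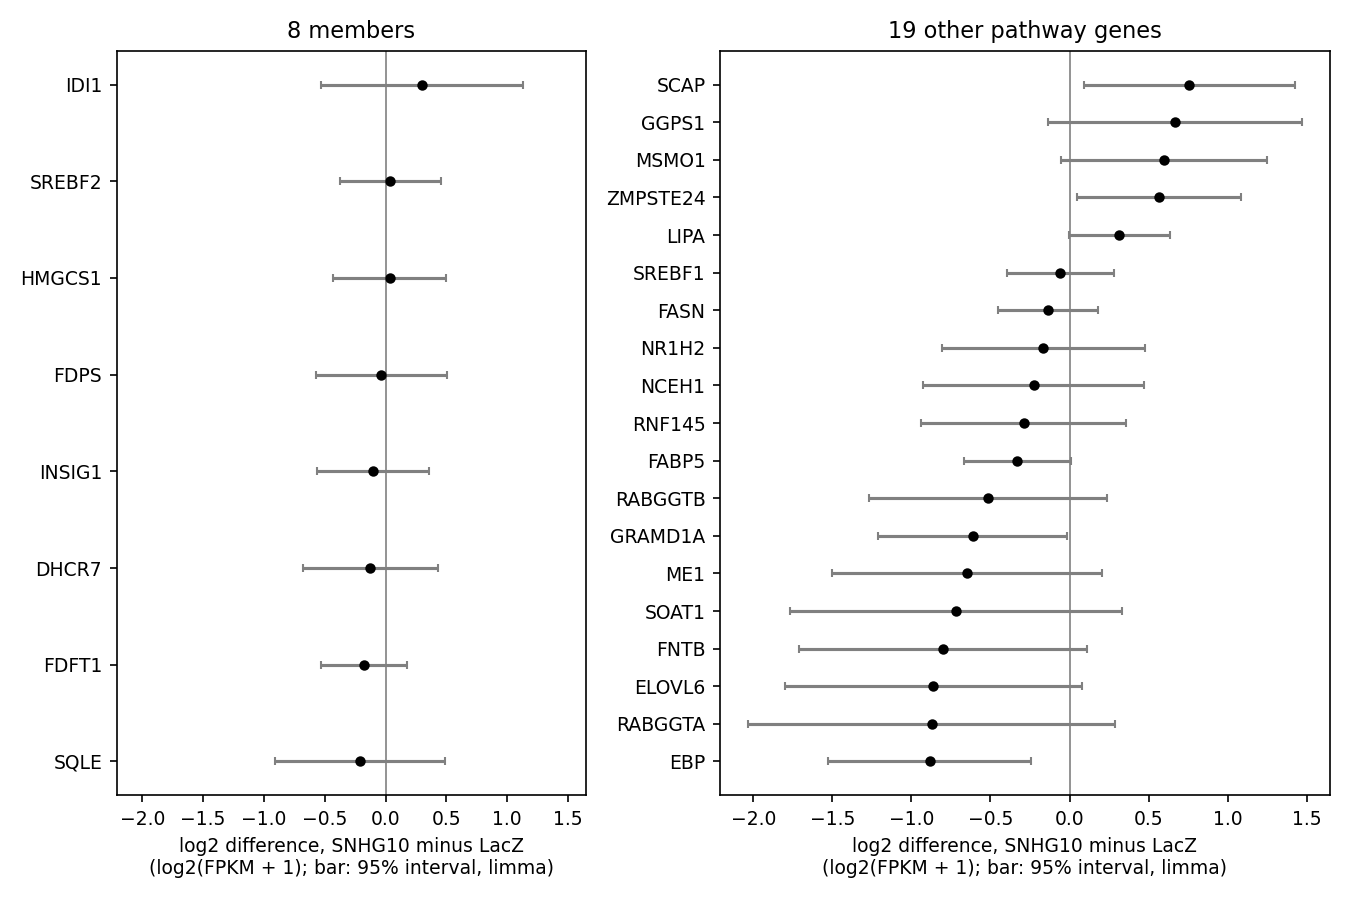
Log2 differences, SNHG10 minus LacZ probes, on log2(FPKM + 1), for the 8 members (left) and 19 other pathway genes (right), with 95% intervals from limma (3 libraries per probe set) and a line at 0. All 8 intervals of the members include 0, and 4 intervals on the right do not, though none of those genes passed the adjusted threshold.

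Below the gene sums, the listed transcripts of several members took different shares in the libraries. Of the 36 transcript rows, 17 were above 0 in all 6 libraries and 15 were listed at 0 in at least 3. Of the 21 rows that reached 1 FPKM in 3 or more libraries, 0 passed limma over all 16618 rows tested, of which 0.0903% passed. At an unadjusted p under 0.05 there were 2 of 21 (9.52%), FDPS-202 and DHCR7-202, against 5.66% of all rows tested. DHCR7-202 reached 1 FPKM with SNHG10 probes only, so it entered the test through the group in which it is high. Over all listed rows, libraries were separated in 5 of the 36 member rows (13.9%) against 7.71%, namely FDPS-202, FDFT1-201 and INSIG1-203 (lower with SNHG10 probes) and DHCR7-202 and FDFT1-210 (higher). Rows of like level, or with as many libraries listed at 0, were not compared.

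FDPS-202 (chromosome 1, 155278643 to 155290456, hg19) read 0, 3.96 and 3.12 FPKM in the SNHG10 set against 12.05, 19.1 and 17.3 in the LacZ set. Every LacZ library lay well above every SNHG10 library. The log2 difference was -2.63 ± 0.66 (limma adjusted p = 0.397 over all rows, exact permutation p = 0.1). The main row, FDPS-203 (155278585 to 155290400), read 51.9, 31.6 and 29.3 against 34.7, 27.7 and 14.3 FPKM, with overlap and a log2 difference of 0.58 ± 0.38. As shares of the gene's sum, FDPS-202 held 0%, 9.94% and 8.04% in the SNHG10 set against 24.2%, 34.8% and 51.2% in the LacZ set, and FDPS-203 held 92.9%, 79.4% and 75.6% against 69.7%, 50.4% and 42.3%. Both shares separated the probe sets, in opposite directions, while the FDPS sum overlapped. FDPS-201, which ends at the same base as FDPS-202, was listed at 0 in all LacZ libraries and read 0.907, 0 and 4.63 with SNHG10 probes. The sum of FDPS-201 and FDPS-202 was still separated, at 0.907, 3.96 and 7.75 against 12.05, 19.1 and 17.3 FPKM.

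DHCR7-202 (chromosome 11, 71145460 to 71159439) read 1.24, 13.9 and 8.53 FPKM in the SNHG10 set. In the LacZ set it was listed at 0 in replicates 1 and 2 and at 0.503 in replicate 3. Its log2 difference was 2.58 ± 0.77 (limma adjusted p = 0.602, exact permutation p = 0.1). DHCR7-201, which ends on the same base and starts nearby, read 21.3, 14.7 and 10.8 against 34.8, 24.5 and 19.9 FPKM, so it went the other way, with overlap. The sum of these 2 rows overlapped, at 22.5, 28.7 and 19.3 against 34.8, 24.5 and 20.4 FPKM. DHCR7-205, a shorter row, read 4.90, 3.94 and 6.45 against 18.8, 3.52 and 18.9, low in 1 LacZ library and high in 2. DHCR7-206 was read only in SNHG10 replicate 1 (10.8 FPKM) and DHCR7-204 only in SNHG10 replicate 3 (3.35 FPKM).

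INSIG1-201 was the largest INSIG1 row in every library, at 22.3, 18.5 and 19.9 FPKM against 17.9, 15.7 and 22.7. INSIG1-203, whose end differs slightly, was listed at 0 in all SNHG10 libraries and read 7.95, 6.72 and 0.234 with LacZ probes. INSIG1-206 was listed at 0 in all LacZ libraries and read 0, 6.81 and 5.21 with SNHG10 probes. INSIG1-201 and INSIG1-203 together read 22.3, 18.5 and 19.9 against 25.9, 22.5 and 23.0, all SNHG10 libraries just below all LacZ libraries. The INSIG1 sum without INSIG1-203 overlapped, at 25.3, 25.3 and 25.1 against 17.9, 15.7 and 34.2 FPKM. These sums of rows, like those of FDPS and DHCR7 rows, were chosen after the values were seen and are given without a test. The share of INSIG1-201 was higher with SNHG10 probes in every library (88.1%, 73.1% and 79.2% against 69.3%, 70.1% and 66.0%, exact permutation p = 0.1). Its FPKM overlapped, with a log2 difference of 0.11 ± 0.22 (limma adjusted p = 0.964).

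FDFT1 was spread over 10 listed rows. FDFT1-201, the largest in 5 of 6 libraries, read 8.78, 13.4 and 12.6 FPKM in the SNHG10 set against 39.8, 15.7 and 16.5 in the LacZ set. All LacZ libraries were above all SNHG10 libraries, with LacZ replicate 1 far from the rest, and the log2 difference was -0.88 ± 0.41 (limma adjusted p = 0.945, exact permutation p = 0.1). As a share of the FDFT1 sum it overlapped between the sets. FDFT1-210 read 3.75, 4.78 and 4.33 against 2.56, 3.68 and 0.0359 FPKM, separated by a small gap. FDFT1-222 was listed at 0.00147 and 0.00156 FPKM in SNHG10 replicates 1 and 3 and at 3.75 in SNHG10 replicate 2.

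SQLE and IDI1 each had 1 main row, and HMGCS1 had 2. SQLE-201 held 86.8% to 98.4% of the SQLE sum in all 6 libraries, and IDI1-201 held 69.1% to 100% of IDI1. HMGCS1 was split between HMGCS1-201 (10.1, 10.7 and 13.2 against 15.0, 11.04 and 9.22 FPKM) and HMGCS1-202 (11.2, 7.28 and 7.68 against 7.11, 8.62 and 7.52), which end on the same base and start close together. Neither HMGCS1 row passed (limma adjusted p of 0.993 and 0.969). Over all 36 member rows, shares were separated between the probe sets in 7 (19.4%), against 6.76% of the 22602 rows of genes with several rows. That background was not matched for level or for libraries listed at 0, so the contrast cannot be read as a trait of the members. Those 7 lie in only 4 genes, and shares of a gene are not independent because they add up to 100%. They were FDPS-202, FDPS-203 and FDPS-221, INSIG1-201 and INSIG1-203, DHCR7-202 and FDFT1-210. Comparing shares was chosen after the values were seen, and each has the smallest exact p that 6 libraries allow, 0.1.

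**Figure D3:**
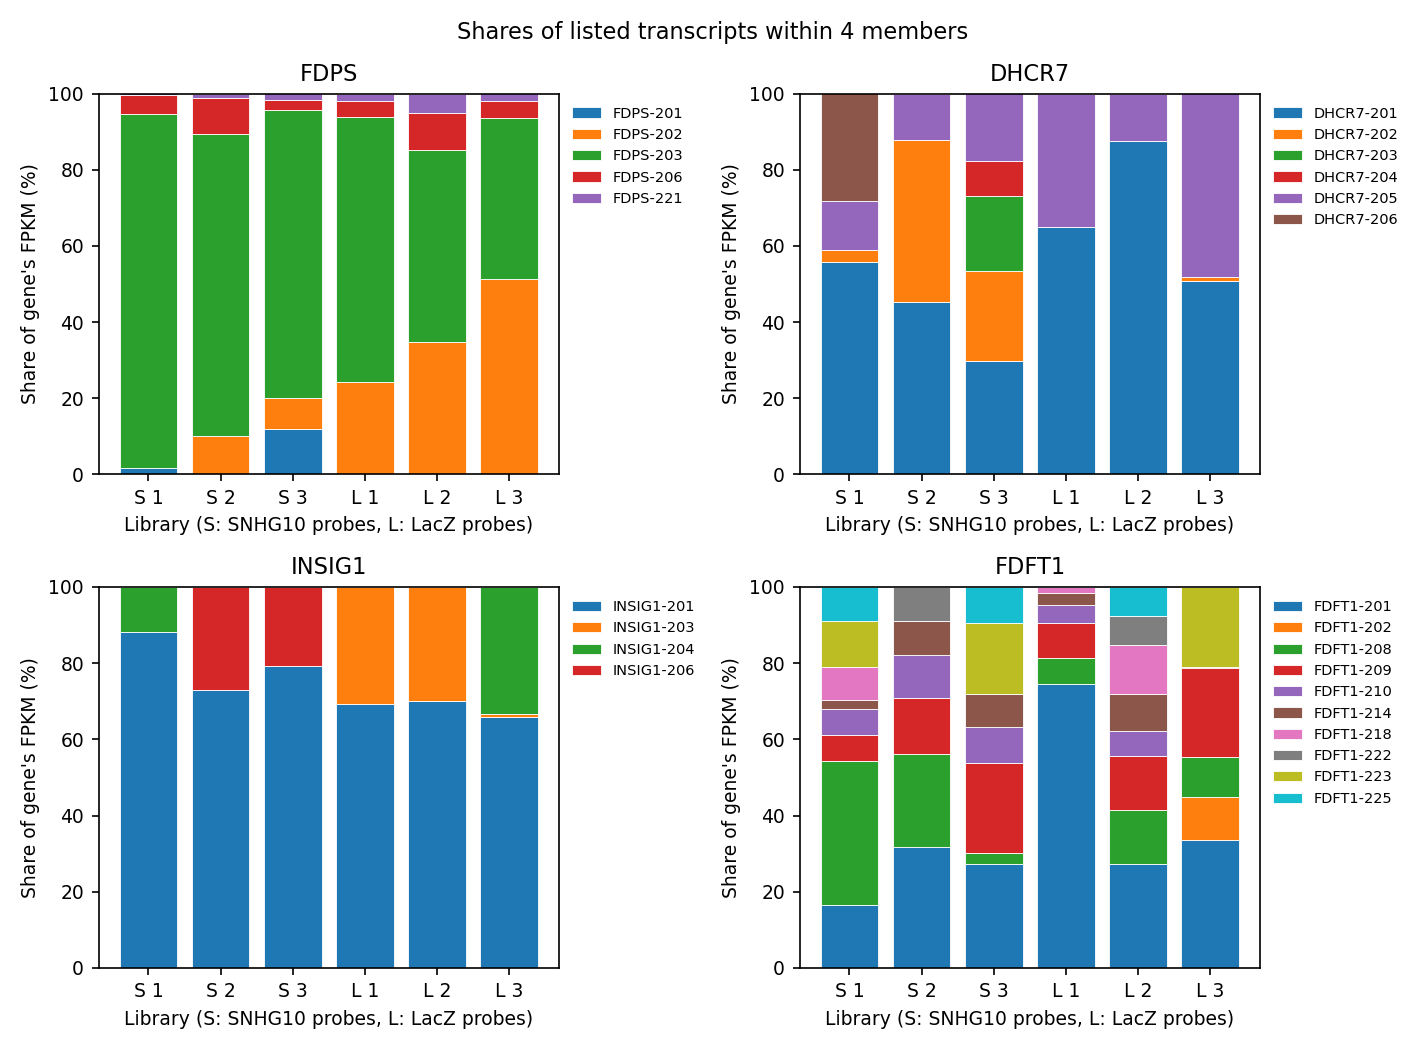
Share of each listed transcript in its gene's FPKM sum (vertical axis, 0 to 100%) in the 3 SNHG10 (S) and 3 LacZ (L) libraries, for FDPS, DHCR7, INSIG1 and FDFT1. FDPS-202 runs from 0% to 9.94% in the SNHG10 libraries and from 24.2% to 51.2% in the LacZ libraries, and the makeup of FDFT1 varies from library to library in both sets.

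Other genes of the pathway were read from 6 lists, 110 symbols in all, of which 96 were listed and 93 tested. None was higher and none lower over all genes tested, with a smallest adjusted p of 0.885 by limma. At an unadjusted p under 0.05 there were 4 of 93 (4.30%, against 5.42% of all genes), and libraries were separated in 8 of 93 (8.60%, against 11.4%). Neither of these shares of the lists was above that of all genes. Of the log2 differences 34 lay above 0 and 59 below, with a median of -0.07, and median-ratio scaling gave 43 and 50. Over all genes tested, 43.3% lay above 0 without that scaling, so most differences were below 0 there too. That share is the one to set beside the unscaled counts of each list below, and not beside those with median-ratio scaling. With that scaling the median over all genes was -0.00267, and the share above 0 is not given here.

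Among 16 other sterol synthesis enzymes, 7 differences lay above 0 and 9 below (median-ratio scaling gave 9 and 7). EBP, the sterol isomerase, read 6.79, 13.0 and 7.59 FPKM in the SNHG10 set against 16.2, 18.9 and 16.3 in the LacZ set. The groups were separated (log2 difference -0.89 ± 0.28, unadjusted p = 0.0133, adjusted p = 0.885 by limma). MSMO1, the methylsterol oxidase, read 32.7, 17.7 and 35.7 against 17.0, 16.6 and 20.02, high in 2 SNHG10 libraries. GGPS1, which makes geranylgeranyl diphosphate from the FDPS product, read 5.93, 4.04 and 5.35 against 2.05, 2.39 and 4.37.

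Of 14 genes of SREBP processing and sterol sensing, 2 lay above 0 and 12 below (median-ratio scaling gave 5 and 9). SCAP, the escort of SREBP2, read 16.9, 25.4 and 17.3 FPKM in the SNHG10 set against 10.1, 15.8 and 8.57 in the LacZ set, separated by a narrow gap. Its log2 difference was 0.76 ± 0.29 (unadjusted p = 0.0311, adjusted p = 0.885 by limma). SREBF1, the sister gene of SREBF2, read 35.7, 39.4 and 34.6 against 37.7, 39.5 and 37.1, and was thus about as abundant as SREBF2 with both probe sets. RNF145, a ubiquitin ligase of sterol-dependent degradation, had a log2 difference of -0.29 ± 0.28.

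In the list of LDL uptake and cholesterol trafficking, 12 of 24 tested differences lay above 0 and 12 below (median-ratio scaling gave 13 and 11). LIPA, the lysosomal lipase that frees cholesterol from LDL, was the most abundant, at 105, 95.6 and 83.0 FPKM in the SNHG10 set against 79.2, 69.5 and 78.0 in the LacZ set. Its libraries were separated, with a log2 difference of 0.32 ± 0.14 (unadjusted p = 0.0515, adjusted p = 0.885 by limma). GRAMD1A, a cholesterol transfer protein of the endoplasmic reticulum, read 16.4, 12.1 and 10.1 against 22.02, 15.5 and 22.7, with overlap (unadjusted p = 0.0462 by limma). LRP5 (lower) and OSBP (higher with SNHG10 probes) also had separated libraries, with log2 differences of -0.51 and 0.22, and are named after their values were seen.

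Genes of storage and efflux gave 1 positive and 5 negative differences among 6 tested (2 and 4 with median-ratio scaling). SOAT1, which esterifies cholesterol for storage, read 7.41, 7.79 and 9.35 FPKM against 8.56, 31.1 and 10.1, with LacZ replicate 2 far above the rest. The ester hydrolase NCEH1 and the nuclear receptor NR1H2 had log2 differences of -0.23 ± 0.30 and -0.17 ± 0.28.

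Fatty acid genes under the related factor SREBP1 gave 4 positive and 11 negative differences (5 and 10 with median-ratio scaling). FASN, the fatty acid synthase, read 248, 321 and 246 FPKM in the SNHG10 set against 267, 329 and 294 in the LacZ set, far above every member. FABP5, a fatty acid carrier, read 81.9, 64.7 and 82.1 against 87.6, 94.9 and 105, separated (log2 difference -0.33 ± 0.15, unadjusted p = 0.0550, adjusted p = 0.885 by limma). The elongase ELOVL6 and malic enzyme ME1 had log2 differences of -0.86 ± 0.40 and -0.65 ± 0.37, with overlapping libraries.

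Of 18 genes that use isoprenoids or prenylate proteins, 8 lay above 0 and 10 below (median-ratio scaling gave 9 and 9). ZMPSTE24, the protease of farnesylated prelamin A, read 14.4, 11.9 and 12.7 FPKM in the SNHG10 set against 7.95, 7.86 and 9.53 in the LacZ set. Its libraries were separated (log2 difference 0.57 ± 0.22, unadjusted p = 0.0365, adjusted p = 0.885 by limma). FNTB, the farnesyltransferase beta subunit, went the other way, at 1.61, 3.59 and 2.86 against 4.02, 4.14 and 8.43. RABGGTA and RABGGTB, which geranylgeranylate RAB proteins, had log2 differences of -0.87 ± 0.50 and -0.52 ± 0.32, with overlap.

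**Figure D4:**
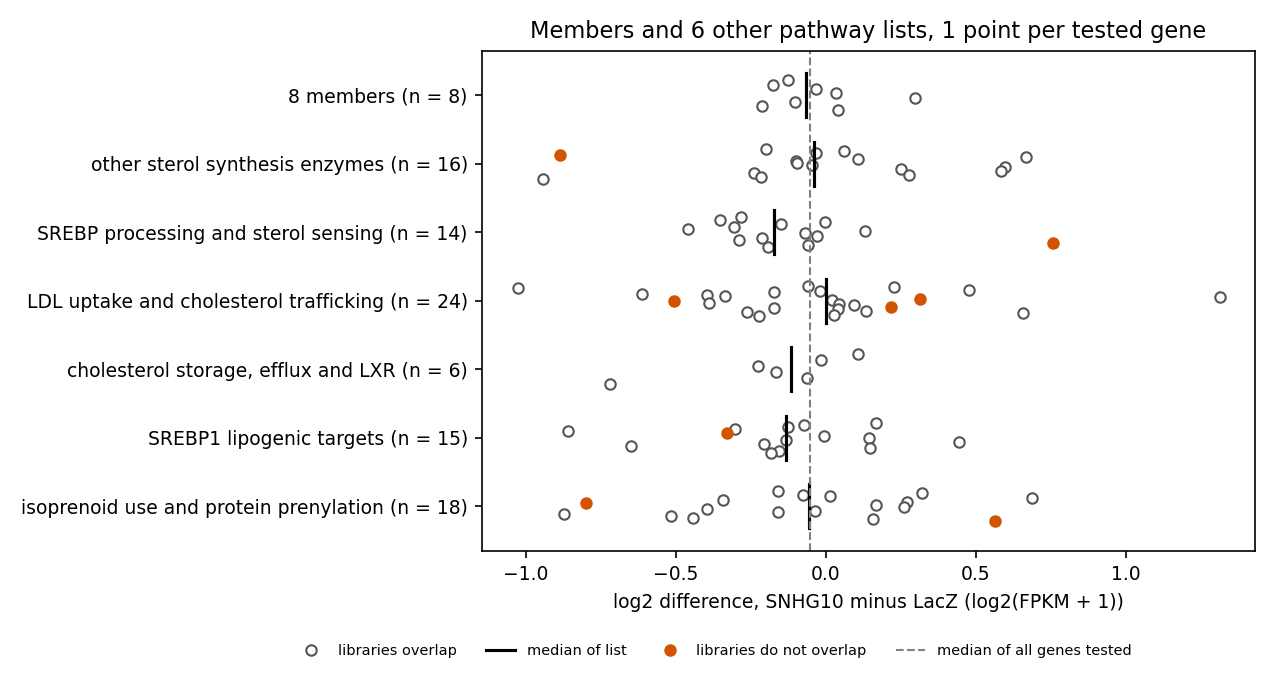
Log2 differences, SNHG10 minus LacZ probes, of the members and of 6 other pathway lists, 1 point per tested gene. Orange points mark genes whose probe sets do not overlap (0 of 8 members and 8 of 93 others), short bars mark each list's median, and the dashed line marks the median of all genes tested, -0.05.

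The members did not share a single profile over the libraries. Against the mean of their standardized log2 values, Pearson's r over 6 libraries was 0.93 for FDPS, 0.91 for FDFT1, 0.80 for HMGCS1 and 0.59 for IDI1, near 0 for DHCR7 (0.12) and SREBF2 (0.02), and negative for INSIG1 (-0.52) and SQLE (-0.59). Each member is itself part of that mean. The 3 other genes most like it were C14orf2 (r = 0.990), COL4A6 (0.989) and PHYHD1 (0.987), among 78 of 10296 genes (0.758%) with r of at least 0.9. PHYHD1 was near the floor, at 1.48, 0 and 0 FPKM in the SNHG10 set against 1.39, 1.37 and 0 in the LacZ set. C14orf2 and COL4A6 were above 0 in every library. With 6 libraries, all of which also enter the FPKM totals, these are descriptions only.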

How the data were processed

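FPKM per transcript were deposited by the authors for 6 libraries, per the file headers, for protein-coding rows only. The submitters' processing notes name Bowtie2 2.1.0 and the hg19 build. What program estimated FPKM is not given in the sources used here, nor is its use of strand. The lowest maximum of a row over the libraries was 0.507 FPKM, and 159 values lay between 0 and 0.001. The files give no read totals, so depth is unknown and no detection limit was computed. No pair of libraries held identical values.

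FPKM were summed per gene symbol. Genes, and separately transcript rows, reaching 1 FPKM in 3 or more libraries entered a limma 3.58.1 fit (R 4.3.3, lmFit and eBayes with trend) on log2(FPKM + 1), adjusted by Benjamini-Hochberg over all genes (10304) or rows (16618), at a threshold of 0.05. Fold changes of low values are understated on that scale. For single values the exact permutation test, two-sided, ran over 20 library assignments and cannot give a p under 0.1. The fit was also run on simulated data, and the outcome is not given here. The size of difference that it could miss is therefore not stated. Other filters, pseudocounts, scalings and eBayes settings, a block on replicate number and runs without each library were tried as alternatives. Shares and sums of rows within a gene were added after seeing the data. Members and lists were chosen with earlier results of these data known. Of each list, the most abundant gene and the 3 with the smallest p were named, except 3 genes that are not reported here, which stayed in the fit and in the counts. Python 3.11.15 with pandas 2.3.3 was used for counts.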

Additional observations from a re-analysis of the deposited data

How the results depend on the processing

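No member gene and no member transcript row passed the threshold in any setting tried, and no gene of the 6 other lists did. Over leave-one-out runs the number of genes past it ranged from 0 to 1 higher and from 0 to 1 lower, none of them a member, and members with separated libraries ranged from 0 to 3 of 8, while 20.9% to 21.8% of all genes tested were separated in those runs. With a replicate block the count of members past the threshold was 0, with a smallest adjusted p of 0.917 by limma, and it changed no call. The deviations of libraries sharing a number had correlations of 0.0151, 0.0121 and 0.0161, too low to treat the numbers as a pairing. Each library's deviation correlated best with that of its own number, a hint from the data and not from the design. With median-ratio scaling the log2 difference turned for FDPS (0.0256), SREBF1 (0.000724) and HMGCS1-201 (0.0125). Leave-one-out runs turned the sign of SREBF2 (-0.0626 to 0.149), INSIG1 (-0.234 to 0.0641), HMGCS1 (-0.0664 to 0.135), IDI1 (-0.0849 to 0.627), FDPS (-0.237 to 0.103), SQLE (-0.443 to 0.117), DHCR7 (-0.357 to 0.0997), NCEH1 (-0.409 to 0.0708), NR1H2 (-0.462 to 0.0137), and of the rows FDFT1-208 (-0.318 to 1.26), FDFT1-209 (-0.5997 to 0.0887), FDFT1-214 (-0.163 to 1.1), FDPS-206 (-0.408 to 0.249), HMGCS1-201 (-0.179 to 0.142), HMGCS1-202 (-0.0412 to 0.238), IDI1-201 (-0.1004 to 0.605), IDI1-203 (-0.473 to 0.292), INSIG1-201 (-0.00133 to 0.251), SQLE-201 (-0.345 to 0.184), SREBF2-201 (-0.0816 to 0.118). The cause was not tested. FDPS-202 stayed negative (-3.06 to -1.9). Among the leave-one-out runs, DHCR7-202 could be fitted only where a LacZ library was left out, since it reaches 1 FPKM in the SNHG10 libraries alone, so those runs say nothing of its sign. Counts of list genes, separated libraries and shares under other settings were chosen after seeing the data. Unknown depth limits what rows near 0 can show.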
